A study of Bos taurus with 23 samples.

Results

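The genes described here were chosen because their levels differed between uteri, whatever the treatment of the explants, and the rule set no condition on treatment. Levels are in CPM, the reads of a gene divided by all reads counted in its library and scaled so that a library sums to 1000000. A gene was a member where every library of 1 uterus had at least 5 CPM and at least 5 times the highest library of another uterus. Of 18897 genes in the table, 111 met this rule, which is 0.587%, and they were 0.999% of the 11107 genes that reached 5 CPM in every library of at least 1 uterus. The measured levels chose the members, so the differences between uteri below are descriptions and carry no test.

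The libraries are messenger RNA from intercaruncular bovine endometrium, the lining away from the sites where the placenta attaches. Punches of it from mid-luteal uteri were kept as explants and treated for 6 h. AI explants were cultured with a Day 15 conceptus from a blastocyst made in vivo (n = 4, 3 female and 1 male), and IVF explants with a Day 15 conceptus from a blastocyst made in vitro (n = 7, 2 female and 5 male). IFNT explants were given ovine interferon tau, a recombinant protein, at 100 ng/mL (n = 6), and Control explants had only the RPMI medium that all groups shared (n = 6). The number after the letter U in each title is shared between groups and is called a uterus here, although the labels do not define it. The rule used 22 libraries from 6 uteri. Titles also carry a code that the labels leave unexplained, which is the same in all 4 AI libraries and is shared by 2 pairs of the IVF libraries, and the sexes of the conceptuses were not compared here. In 4 of these uteri all 4 treatments were present, and in 2 uteri AI was lacking. Conceptus lengths in the titles ran from 21 to 31 mm for AI and from 8 to 54 mm for IVF. In each of the 4 uteri with both, the AI conceptus was the longer, so conceptus source and length cannot be told apart there. The remaining IVF library is the only one of its number and was not used by the rule. Total counts lay between 19461678 and 36730378 per library.

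Interferon tau is the type I interferon by which the ruminant conceptus signals pregnancy, and it acts on the endometrium by inducing interferon-stimulated genes. Explants of 1 uterus share the animal's genotype, its cycle and its uterine environment, and each explant is a mixture of epithelium, glands, stroma, vessels and immune cells. In such bulk tissue, fewer cells of a type and less RNA per cell cannot be told apart. None of the 18897 Ensembl identifiers found a symbol in the sources used here, so no member is given a name or a role, and the tissue could not be checked against its markers.

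The members spanned from near silence to very high expression. The mean level in a member's highest uterus had a median of 34.5 CPM over members and ran from 5.85 to 1765 CPM, and the mean in its lowest uterus had a median of 1.29 CPM and ran from 0 to 144 CPM. On the scale of log2 (CPM + 0.1), the highest and the lowest uterus differed by a median of 4.16, with a range from 2.75 to 11.76. The median was 0.68 over the 11107 genes. For 59 members the lowest library of the high uterus was 5 to 10 times the highest library of the low uterus, and for 52 it was at least 10 times or the low uterus had no read. The 3 members closest to the limit had ratios of 5.00, 5.02 and 5.07, and the 3 genes just outside it had 4.999, 4.97 and 4.92.

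With the limit for an off state at 1 CPM, the smaller share of members was on or off, and the larger share was graded. An on or off member is one with all libraries of at least 1 uterus under 1 CPM, which held for 37 members, while 74 stayed graded. Which share is larger depends on this limit. Under 2 CPM, 57 members were on or off, which is the larger share, and under 0.5 CPM there were 25. In 5 members a uterus had no read in any library, where 3 reads correspond to between 0.0817 and 0.154 CPM. The median level in the highest uterus was 13.1 CPM for on or off members and 59.4 CPM for graded ones. The limit is an absolute level that less abundant genes fall under more easily, so this difference follows in part from the definition. The label asks only for a uterus under the limit, and not for separate levels without intermediates.

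ENSBTAG00000021565 was the plainest on or off example, singled out after its values were seen. In its highest uterus it had 35.6 CPM with AI, 28.9 with IVF, 26.9 with IFNT and 16.7 in Control. The next uterus gave 27.1 CPM with AI, 28.7 with IVF, 25.9 with IFNT and 19.97 in Control. In the other 4 uteri no library exceeded 0.170 CPM or 4 reads, and the library outside the rule had 0 reads. No intermediate level occurred, and both states held under every treatment present.

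ENSBTAG00000047547, also singled out after its values were seen, took several separate levels. Its highest uterus had 237 CPM with IVF, 230 with IFNT and 225 in Control, and the next had 106 CPM with IVF, 98.9 with IFNT and 101 in Control. A pair of uteri lay between 16.0 and 29.1 CPM, and another pair between 1.71 and 3.85 CPM. These 4 ranges did not overlap, and the library outside the rule, at 21.2 CPM, fell into the range from 16.0 to 29.1 CPM. Neither gene followed other members closely, with a highest Pearson r of 0.76 and 0.77 to any other member over the 22 libraries.

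**Figure D1:**
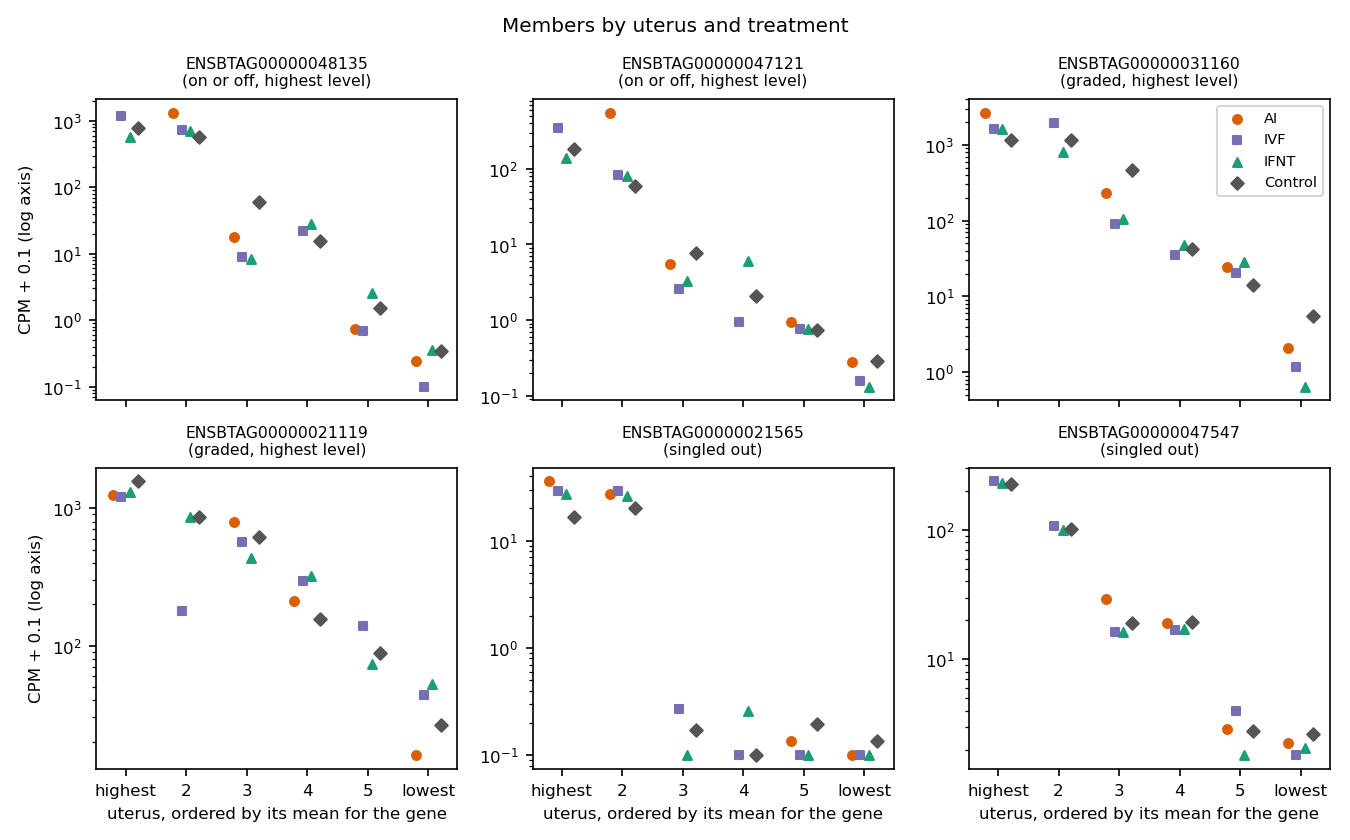
CPM + 0.1 on a log axis for 6 members in the 22 libraries of 6 uteri, ordered for each gene from its highest to its lowest uterus, with 1 point per library and the treatment as colour and shape. Points of 1 uterus stay together across treatments, with exceptions such as the IVF library of ENSBTAG00000021119 at 177 CPM beside 861 and 859 CPM in the same uterus.

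No single arrangement of uteri accounted for the members. Each member's uteri were divided at the widest gap between neighbouring uterus means on the log2 scale. A single uterus stood above the gap in 27 members, 2 uteri in 17, 3 in 12, 4 in 24 and 5 in 31. Of 62 possible sets of high uteri, 36 occurred, the commonest with 12 members and the next with 11. Each of the 6 uteri was the only high one for some members and the only low one for others. A given uterus took part in a pair that met the rule in 52 to 80 of the 111 members. The widest gap had a median of 2.47 in on or off members and 1.68 in graded members on the log2 scale. It was as small as 1.04 in an on or off member and as large as 3.65 in a graded one. The on or off label therefore does not separate switches from gradients.

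Of the members, 54 formed 2 large sets, found by average-linkage clustering at a correlation of 0.7 over the 22 libraries. The first set held 39 members, 32 of them graded, with a median pairwise r of 0.83. The second set held 15 members, 11 of them on or off, with a median pairwise r of 0.92. The median r between the sets was -0.32. The other 57 members fell into small clusters of at most 4 or stood alone. These sets were chosen on the same values, and the correlations share libraries and depth, so they are descriptions only.

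In the first set the median member level, uterus by uterus from high to low, was 51.5, 28.7, 18.6, 10.3, 8.78 and 4.29 CPM. These medians fell without a wide break, and they include the low IVF library described below. Single members could differ, and 7 of the 39 were on or off. The set includes ENSBTAG00000021119, the second most abundant graded member. In its highest uterus it had 1249 CPM with AI, 1213 with IVF, 1322 with IFNT and 1568 in Control, and in its lowest uterus 15.8 CPM with AI, 43.7 with IVF, 52.7 with IFNT and 26.4 in Control. In the uterus with the second highest mean, the IVF library had 177 CPM, beside 861 CPM with IFNT and 859 CPM in Control. The first set had a geometric mean of 10.1 CPM in that IVF library, against 25.6 CPM with IFNT and 32.6 CPM in Control of the same uterus. Of its 39 members, 36 were lower there than in both other libraries of the uterus, 28 of them under 0.5 of either, and 3 were not lower. After the uterus means were removed, members of this set still correlated at a median r of 0.49, so they also varied together between explants of 1 uterus.

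The second set fell off more steeply, at 34.7, 21.3, 4.61, 1.87, 0.793 and 0.164 CPM from the highest to the lowest uterus. It holds both of the most abundant on or off members and the most abundant graded one. ENSBTAG00000048135 had 1188 CPM with IVF, 571 with IFNT and 788 in Control in its highest uterus, and 1332 CPM with AI, 734 with IVF, 693 with IFNT and 565 in Control in the next. Its lowest uterus had 0.143 CPM with AI, 0 with IVF, 0.256 with IFNT and 0.249 in Control, which is 0 to 8 reads. The 3 uteri in between ranged from 0.584 to 59.0 CPM, so even this member was not a plain switch.

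ENSBTAG00000047121 followed the same order, with 351 CPM with IVF, 141 with IFNT and 180 in Control in its highest uterus. The next uterus had 554 CPM with AI, 83.2 with IVF, 80.0 with IFNT and 59.0 in Control, and the AI library stood well above the others there. In its lowest uterus no library exceeded 0.187 CPM. ENSBTAG00000031160 had 2663 CPM with AI, 1617 with IVF, 1621 with IFNT and 1159 in Control in its highest uterus, and 1.97 CPM with AI, 1.06 with IVF, 0.545 with IFNT and 5.35 in Control in its lowest. For 11, 11 and 10 members, r with these genes exceeded 0.9 over the 22 libraries. Whether a difference in cell content moves with either set was not tested, since no cell type marker could be identified.

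**Figure D2:**
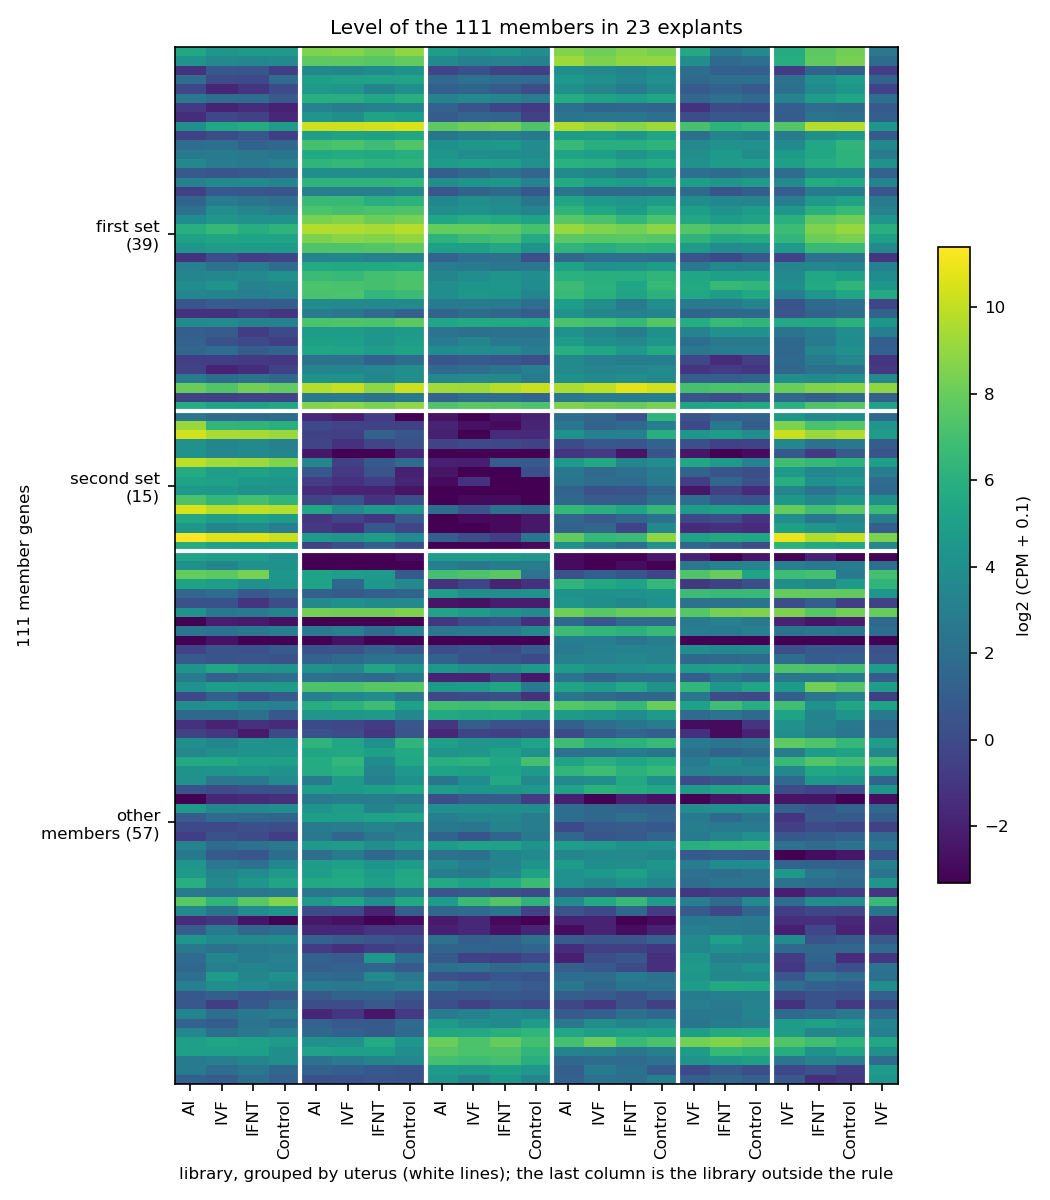
Log2 (CPM + 0.1) of the 111 members (rows) in 23 libraries (columns), with white vertical lines between uteri and white horizontal lines between the first set of 39, the second set of 15 and the other 57 members. Colour changes mainly at the vertical lines, and in the first set the 1 IVF library of the sixth uterus is darker than the IFNT and Control libraries beside it.

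The members were not unusually steady within a uterus. The standard deviation between libraries of 1 uterus, on the log2 scale, had a median of 0.56 over members and 0.27 over the 11107 genes. These genes were not matched to the members for level. Only 10 members, 8 of them on or off, kept within 2-fold in every uterus that averaged 1 CPM or more. The uterus accounted for a median of 91.4% of a member's sum of squares and treatment, after the uterus, for 1.35%, against 50.8% and 15.4% over the 11107 genes. The rule favours the first share and limits the second, because a large treatment effect would spread the libraries of a uterus.

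Treatment was compared with edgeR's quasi-likelihood test over all 15227 genes that passed the filter on low counts, among them all 111 members. Without the uterus in the model, 0 members passed an adjusted p of 0.05 for IFNT against Control, AI against Control, IVF against Control or AI against IVF. The share of all genes called was 3.21%, 3.15%, 3.37% and 0%. At an unadjusted p under 0.05 there were 1, 1, 1 and 0 members, against 8.8%, 12.2%, 11.3% and 2.25% of all genes. DESeq2 without the uterus called 1, 0, 1 and 0 members, with 3.1%, 3.42%, 3.54% and 0% of all genes called. The edgeR test without the uterus had little resolution for such genes, so the low counts are not read as a lack of response. The median standard error of a member's log2 fold change for IFNT against Control was 0.86, where it was 0.23 over all genes tested.

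With the uterus as a block, which the shared numbers allow, that standard error fell to 0.29 for the members and 0.16 for all genes. The same 1 member was then called higher with IFNT, with AI and with IVF against Control, and 0 were called between AI and IVF. The share of all genes called was 5.75%, 11.2%, 7.45% and 0%. Unadjusted p-values under 0.05 were found for 6, 15, 7 and 8 members (5.41%, 13.5%, 6.31% and 7.21%), against 16.1%, 26.0%, 21.2% and 8.24% of all genes. Without the AI library of replicate 4, the blocked fit called 2 members for AI against Control, with 6.32% of all genes called in that fit. The lower shares against Control are not read as a property of the members, since the rule limits the spread within a uterus. DESeq2 with the block called 2, 1, 4 and 0 members, with 6.45%, 12.3%, 9.16% and 0.651% of all genes called. Of the 4 for IVF against Control, 2 were higher and 2 lower.

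The fold changes of members were smaller with the block wherever the groups compared held different uteri. The median size of a member's log2 fold change, with its sign removed, was 0.44 for AI against Control, 0.35 for IVF against Control and 0.57 for AI against IVF, where AI lacks 2 of the 6 uteri. With the block it was 0.31, 0.24 and 0.25. With 1 AI library left out and no block, the AI against Control value lay between 0.47 and 0.68 and the AI against IVF value between 0.46 and 0.92, both highest without AI replicate 1. With the block, the AI against IVF value stayed between 0.26 and 0.31. For IFNT against Control, where both groups hold the same 6 uteri, it was 0.20 without and 0.22 with the block. Over all genes tested, the AI against IVF value was 0.13 without and 0.14 with the block. All 39 genes of the first set had a positive fold change for AI against IVF without the block, and 25 had one with it. Over all genes tested, 47.3% and 47.1% were positive. The 39 genes were grouped because they vary together in these libraries, so their shared sign does not count as 39 separate results. For 108 of the 111 members the mean IFNT minus Control difference over the 6 uteri, sign removed, was under 1 on the log2 scale. The matching share over other genes was not computed, so this count is not read as a property of the members.

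**Figure D3:**
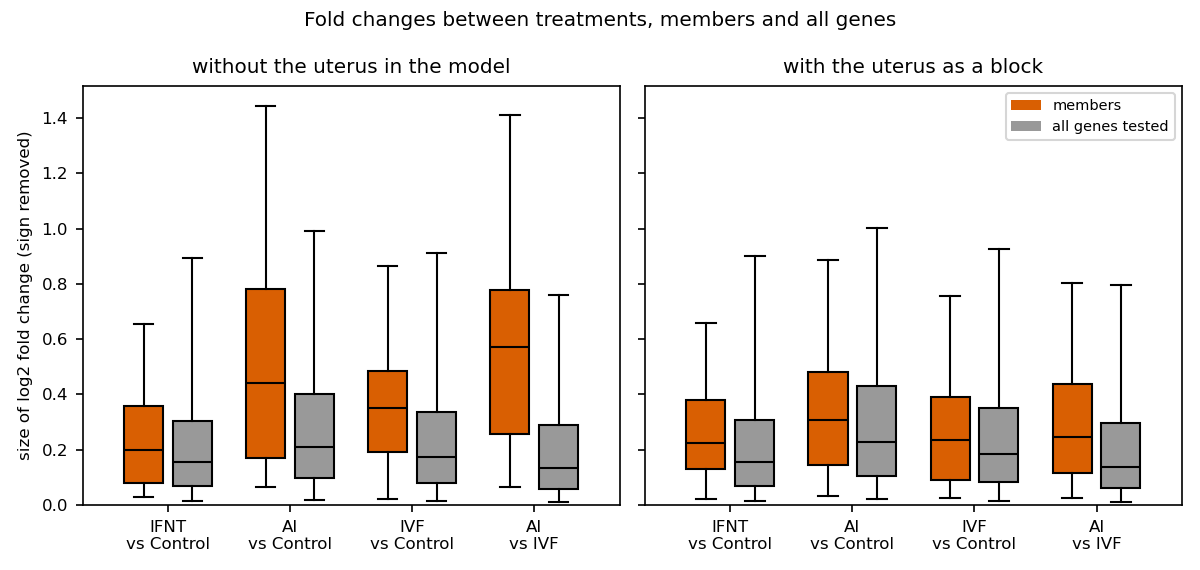
Size of the log2 fold change, sign removed, for the members (orange) and all 15227 genes tested (grey) in 4 comparisons, without (left) and with (right) the uterus as a block. Boxes show quartiles and medians and whiskers the 5th to 95th percentile; the member median for AI against IVF is 0.57 on the left and 0.25 on the right.

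Within uteri, 3 members had the same sign of IFNT minus Control in all 6 uteri (2.70%, against 19% of the 11107 genes). For AI against Control, 25 members had 1 sign in all 4 uteri (22.5%, against 45%), and for IVF against Control 5 did in all 6 (4.50%, against 22.5%). For AI against IVF 19 did in all 4 (17.1%, against 14.5%). The IFNT and Control explants of 1 uterus differed by a median of 0.46 in size on the log2 scale over members and uteri, and by 0.25 over the 11107 genes. Those genes were not matched to the members for level, and a member's lowest uterus had a median of 1.29 CPM. Whether low counts account for the larger difference in members was not tested.

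In edgeR with the block, 1 member was both set apart by uterus and higher with treatment, ENSBTAG00000015727. With the 6 uteri in the order of their Control level, high to low, IFNT explants had 248, 329, 133, 192, 24.9 and 1.44 CPM, and Control explants had 39.1, 20.8, 6.52, 4.73, 1.67 and 0.745 CPM. In the same order, IVF explants had 164, 203, 113, 152, 30.0 and 2.03 CPM. In the 4 uteri with AI explants, these had 238, 125, 36.1 and 1.13 CPM, beside Control levels of 20.8, 4.73, 1.67 and 0.745 CPM. The IVF library outside the rule had 127 CPM. Treated explants were therefore far above Control in 5 uteri, and in the lowest uterus all 4 libraries stayed between 0.745 and 2.03 CPM, which is 23 to 61 reads.

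With the block, its log2 fold change with the SE was 3.72 ± 0.42 for IFNT, 3.54 ± 0.46 for AI and 3.56 ± 0.42 for IVF, each against the same Control explants, and the edgeR adjusted p-values were 6.29e-06, 4.94e-05 and 1.29e-05. Without the block the same 3 values were 3.78 ± 1.16, 3.21 ± 1.19 and 3.39 ± 1.13, and no call was made, at edgeR adjusted p-values of 0.1003, 0.206 and 0.134. Leaving out any 1 of the AI libraries kept the blocked AI call, at log2 fold changes from 3.27 to 3.73. The IFNT explant was above the Control explant of its uterus 6 times of 6, with a mean log2 difference of 3.50 and an SD of 1.55 over uteri. The difference was 0.86 in the lowest uterus and between 2.66 and 5.32 in the other 5. Whether the response differs between uteri was not tested, because a uterus holds 1 library per treatment.

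In all fits run, 5 members were called at least once, and the other 4 were called in DESeq2 with the block. ENSBTAG00000016698 was higher with IFNT than in Control there, at a log2 fold change of 0.81 ± 0.28 (SE, DESeq2 adjusted p = 0.0448), and it was the further member called for AI against Control in edgeR without AI replicate 4. For IVF against Control, ENSBTAG00000019060 was lower, at -0.97 ± 0.28 (SE, DESeq2 adjusted p = 0.00693), and so was ENSBTAG00000046353, at -0.59 ± 0.21 (SE, DESeq2 adjusted p = 0.0446). The remaining member was higher with IVF, at 1.92 ± 0.68 (SE, DESeq2 adjusted p = 0.0447). In the 1 uterus where it reached 5 CPM, it had 5.83 CPM with IVF and 6.15 in Control. In the other uteri of the rule no IVF or Control library exceeded 0.392 CPM, so its rise rests on few reads. None of these 4 was called by edgeR with the block on all libraries, and those named were chosen after their values were seen.

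**Figure D4:**
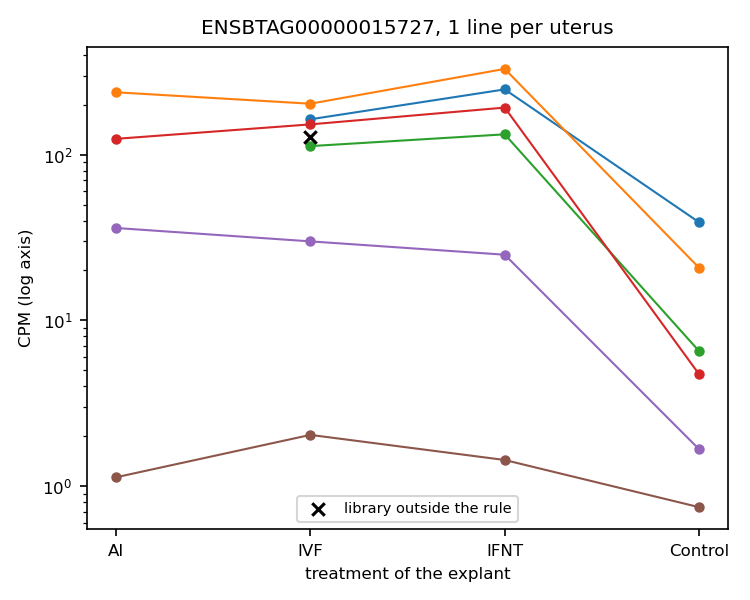
CPM of ENSBTAG00000015727 on a log axis by treatment, with 1 line for each of the 6 uteri and a cross for the IVF library outside the rule. In 5 uteri Control lies below the treated explants, and the lowest line stays between 0.745 and 2.03 CPM in all 4.

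To read the uterus differences in libraries that did not choose the genes, the rule was applied to the 12 Control and IFNT libraries alone. It then picked 251 genes, which include all 111 members by construction. In the 10 conceptus libraries, the uterus that was higher in Control and IFNT was also higher for 234 of the 251. The matching share over other genes was not computed. All conceptus libraries of the high uterus exceeded all of the low uterus for 214 (85.3%), against 75.1% of 11419 genes. Those 11419 include the 251 and had their 2 uteri picked on the same 12 libraries, but without the 5-fold condition. A difference of at least 5-fold was present again for 122 genes (48.6%), and 1.6% of the 11419 had one. Because the 11419 were not chosen for such a difference, these shares are not a like comparison. The median log2 difference was 2.85 in the conceptus libraries and 3.59 in the libraries that picked the genes. In 2 of the uteri only 1 conceptus library was available.

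A state under 1 CPM also recurred in most cases. Among these 251 genes, 78 were under 1 CPM in all Control and IFNT libraries of some uterus, which made 143 pairs of gene and uterus. In the conceptus libraries 106 of the 143 (74.1%) were again under 1 CPM throughout, and in 13 some library reached 5 CPM. The matching share over all genes was not computed, so 74.1% is not read as particular to these genes. Of the 140 genes that lost the rule once conceptus libraries were added, 10 were called for AI against Control with the block (7.14%, against 11.2% of all genes) and 1 for IVF against Control (0.714%, against 7.45%).

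**Figure D5:**
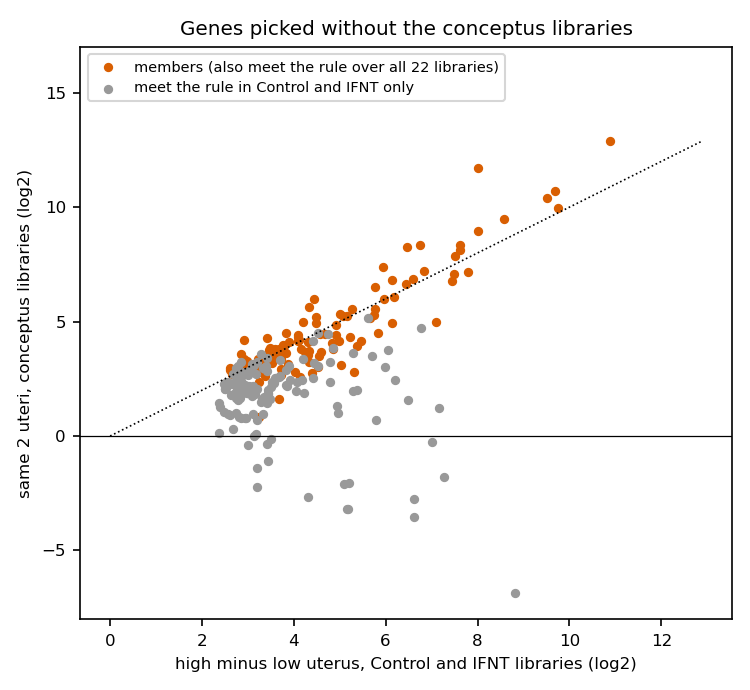
Difference between a high and a low uterus on the log2 scale for 251 genes picked on Control and IFNT libraries, in those libraries (x axis) and in the conceptus libraries of the same 2 uteri (y axis); orange points are the 111 members and grey points the other 140 genes, and the dotted line marks equality. All members lie above 0 on the y axis, and 17 of the grey points lie at or below 0. Members also met the rule with the conceptus libraries included and the grey genes did not, so this contrast follows largely from the choice.

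The IVF library outside the rule gave a further reading, from 1 explant. For 107 of the 111 members its level lay within the range of the other 22 libraries, and for 4 it lay below, while 4.66% of the 11107 genes lay outside that range. The rule chose members for a wide range over those 22 libraries, so this comparison is not read as a result. Of the 37 on or off members, 11 were under 1 CPM in it, 8 had 5 CPM or more, and 18 lay in between. No share over other genes was set beside these counts. The first set had a median of 6.59 CPM there, between the uteri at 4.29 and 8.78 CPM, and the second set a median of 7.49 CPM, between the uteri at 4.61 and 21.3 CPM.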

How the data were processed

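The authors deposited read counts per gene, whole numbers that are not normalized, for 18897 Ensembl identifiers in 23 libraries. Per the submitters' processing notes HISAT2, StringTie, edgeR and the build UMD3.1 were used. The roles of these tools, how reads were assigned to genes, the annotation and whether strand was used were not given in the sources used here. Reads of overlapping genes or close paralogs may have been split, and a difference between animals in how reads align would appear as a difference in level.

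CPM for the rule is the count over the column total. Tests used R 4.3.3, edgeR 4.0.16 (TMM, filterByExpr, quasi-likelihood F test, Benjamini-Hochberg over all genes) and, as an alternative, DESeq2 1.42.0, and were tested on simulated data. The model had 4 groups over 23 libraries, with 19 residual degrees of freedom, and 13 with the uterus block, in which the library outside the rule carries no information on treatment. The p-values without the block treat explants of 1 uterus as independent. No label says that a U number is 1 animal.

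Libraries that share a U number deviated from their group means together in all 30 pairs, at r from 0.15 to 0.72 across genes (median 0.51). Without the members the lowest r was 0.0997, just under 0.1. Pairs with different numbers had a median r of -0.08 and reached 0.49, so the ranges overlapped. The numbers are taken to pair the libraries from the correlation over all genes, which was over 0.1 in every pair. No 2 libraries agreed within sampling noise (lowest chi-square per degree of freedom 19.3 over 253 pairs).

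Members and choices were set with earlier results of these data known. The named genes were to be the 2 on or off and the 2 graded members with the highest mean level in their highest uterus, and 6 more were added after their values were seen.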

Additional observations from a re-analysis of the deposited data

Results flagged for a closer look

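A gap test for a library far from the rest of its treatment group was run on 36 combinations of group and gene or set. It marks about 1 in 20 by chance where nothing differs, and it marked 6 here, all in the second set, whose libraries follow the uterus. The rule chose these genes for differences between uteri, and several marks are the same AI library in genes that vary together. The number of marks is therefore not read against that chance rate. Among AI libraries, the one of the uterus numbered 1 had 1330 CPM of ENSBTAG00000048135 against 0.143 to 17.8 CPM in the other 3. It had 554 CPM of ENSBTAG00000047121 against 0.179 to 5.47 CPM, and 2660 CPM of ENSBTAG00000031160 against 1.97 to 228 CPM. The second set as a whole had a geometric mean of 106 CPM there, against 0.238 to 6.77 CPM. For ENSBTAG00000047121, the libraries of the uterus numbered 10 stood out with 351 CPM in IVF, against at most 83.2 CPM in the others, and with 180 CPM in Control, against at most 59.0 CPM. The other treatments of those uteri were also high for these genes.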

How the results depend on the processing

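The number of members was 234 at a fold of 3, 52 at a fold of 10, 251 from Control and IFNT libraries alone and 53 where at least 2 uteri had to lie on each side of the widest gap. It was 152 and 85 at a minimum of 2 and 10 CPM, 111 with TMM-scaled CPM, of which 104 were the same genes, 112 with median-ratio scaling, of which 105 were the same, and 80 to 102 when 1 uterus was left out. The number of on or off members was 57 under 2 CPM and 25 under 0.5 CPM. On or off members were thus the larger share under 2 CPM and the smaller share under 0.5 CPM. The 0 members called became 1 for IFNT, 1 for AI and 1 for IVF against Control in edgeR with the replicate block, 2, 1 and 4 in DESeq2 with the block, and 1 for IFNT and 1 for IVF in DESeq2 without it. In an alternative chosen after seeing the data, the block with 1 AI library left out, it was 1 to 2 for AI against Control, and 2 without AI replicate 4. The calls for AI against IVF stayed at 0 in all alternatives run. Median-ratio factors, no filter on low counts and fits of only the groups compared left 0 in every comparison. Depth limits statements on off states: 3 reads are at most 0.154 CPM.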
